A study of Mus musculus with 25 samples.

Results

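Cells of the 6th cluster of the deposited annotation of myeloid cells from injured mouse spinal cord (cluster 6) are described here. Microglia, the resident macrophages of the brain and cord, are long-lived and renew themselves by local division, and after a cord injury they divide around the lesion. A dividing cell copies its DNA in S phase, when replication enzymes and histones are made, and then condenses and separates its chromosomes in mitosis, when a different set of genes is switched on and its proteins are destroyed again at the end. Many promoters of the mitotic set hold a motif called CHR, where a repressor complex keeps the gene off in resting cells, and CCAAT boxes, which are bound by the activator NF-Y.

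The members were all cells that carry cluster code 6 in the table of cells that the authors deposited, joined by barcode to the raw count tables. There were 1515 such cells among 30958 (4.89%), and all 1515 carried the deposited cell type code shared by microglia. The comparison cells were the 12178 cells of clusters 1 to 5, called the other microglia below: 1887, 1924, 3660, 1377 and 3330 cells. The microglia code was carried by all cells of clusters 1, 4 and 5, by 1801 of cluster 2 and by 3312 of cluster 3. It was also carried by the 67 cells of cluster 7, 58 of them from D2, which had still more mitosis RNA than cluster 6 (16262 against 10712 CPM over all cells of each) and entered no comparison. Cluster 1 held control cells alone, so every comparison within injured libraries is with clusters 2 to 5.

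Myeloid cells sorted from the lesion site were sequenced cell by cell in droplets, from the 3′ ends of their RNAs. The 25 libraries came from cords after laminectomy alone (Ctrl), surgery that exposes the cord without injuring it, or from day 1, 2, 3, 10 or 21 after injury (D1 to D21), and each library pools the tissue of 1 to 3 mice. Mice were of the strain Cx3cr1CreERT2, which carries an inducible Cre recombinase at a gene of microglia and monocytes, or Cx3cr1CreERT2:R26tdTomato, which adds a red reporter that Cre turns on. In the first strain all YFP-positive cells were taken (mixed libraries), and in the second strain the sort separated resident cells, which carry both colours, from infiltrating cells, which lack the red. All groups used here carry the Cre allele, and Ctrl_mixed 1, D2_mixed 1, D3_resident 1, D10_resident 1 and D21_mixed 1 were female while the other mixed and resident libraries were male. Ages are not given in the labels, and sort cannot be told apart from strain. Libraries are named by day, sort and replicate, and p-values below measure the spread between these pooled libraries.

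Of the 1515 cells, 1504 lay in the 17 mixed and resident libraries, and 10 of these libraries held at least 20 cluster 6 cells: 2 of D2, 5 of D3 and 3 of D10. Their cluster 6 cells summed to 95360 to 2151975 UMIs (unique molecular identifiers, 1 per captured RNA). No barcode occurred in more than 1 library. The median UMI count of a cluster 6 cell was 0.845 to 1.45 times that of clusters 1 to 5 in the same library (median ratio 0.969), so depth per cell did not separate the groups in 1 direction.

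The label was checked against marker genes. All 6 division markers were higher in cluster 6 than in clusters 1 to 5 in 10 of 10 libraries: Ube2c, Birc5, Pbk, Top2a, Ccnb1 and Cdk1. Microglia markers were present, with 283 ± 89.9 CPM (counts per 1000000 UMIs of the summed cells, mean ± SD, n = 10 libraries) for Tmem119 and 241 ± 156 CPM for P2ry12. Markers of other cells were low: 8 monocyte markers together gave 0 to 46.2 CPM, and 9 T and NK cell markers gave 0 to 1.86 CPM with 6 of 9 at 0. Macrophage markers summed to 301 to 1315 CPM in cluster 6 and 312 to 1255 CPM in clusters 1 to 5, neutrophil markers to 17.5 to 146 CPM with 5 of 11 at 0, and oligodendrocyte markers to 96.2 to 239 CPM. The cells are therefore called dividing microglia here.

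The 100 bases before the start of 4 of the 6 marker genes are shown because mitotic genes define the cluster and these windows hold CHR or CCAAT matches. Of the other marker genes, Birc5 had no match of either motif in its window and is not printed, and Pbk is named only. Sequences are from RefSeq on GRCm38.p6, 5′ to 3′ on the strand of the gene, with capitals marking matches to CHR (TTTGAA, or TTCAAA on the other strand) and to CCAAT (or ATTGG on the other strand). Ube2c, the ubiquitin-conjugating enzyme that works with the anaphase-promoting complex, lies on the plus strand and the window is chr2:164769829-164769928. Top2a, which untangles replicated DNA, has its window at chr11:99024190-99024289 on the minus strand. Cdk1, the kinase that drives entry into mitosis, has it at chr10:69352913-69353012 on the minus strand, and Ccnb1, the cyclin that activates Cdk1, at chr13:100786487-100786586 on the minus strand.
Ube2c: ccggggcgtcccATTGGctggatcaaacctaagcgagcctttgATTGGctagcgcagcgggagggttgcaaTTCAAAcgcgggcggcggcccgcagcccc
Top2a: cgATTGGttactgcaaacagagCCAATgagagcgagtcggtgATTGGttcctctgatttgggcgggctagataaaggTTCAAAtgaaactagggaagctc
Cdk1: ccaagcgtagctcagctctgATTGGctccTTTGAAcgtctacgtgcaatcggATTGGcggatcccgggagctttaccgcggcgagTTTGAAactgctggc
Ccnb1: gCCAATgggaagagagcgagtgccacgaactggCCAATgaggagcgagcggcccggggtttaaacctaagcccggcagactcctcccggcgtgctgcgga

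Ube2c and Top2a each had 1 CHR match downstream of 2 or 3 CCAAT matches, Cdk1 had 2 CHR and 2 CCAAT matches, and Ccnb1 had 2 CCAAT matches and no CHR match in this window. Over the list of mitosis and cytokinesis genes, 23 of the 89 genes with a promoter row held a CHR match on either strand (25.8%), against 6.76% of all 27025 genes with a row, 2 of 41 DNA replication genes (4.88%) and 0 of 18 homeostatic microglia genes. Among genes at 50 CPM or more in cluster 6 or in clusters 1 to 5, 4.33% held a CHR match. CCAAT was found in 59.6% of the mitosis genes, 53.7% of the DNA replication genes, 27.8% of the homeostatic genes, 28.1% of genes at 50 CPM or more and 21.6% of all genes, and both motifs in 19.1% of the mitosis genes, none of the DNA replication and homeostatic genes, 1.76% of genes at 50 CPM or more and 1.26% of all genes. A match is a run of letters and was not measured as a bound site.

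The share of dividing microglia among all cells of clusters 1 to 6 was lowest in control cords and highest at D2 and D3. No control cell was in cluster 6: 0 of 1429 cells in Ctrl_mixed 1, which at a limit of 3 counts allows a share of up to 0.21% (exact 95% upper limit 0.258%), and 0 of 458 in Ctrl_resident 1, which allows up to 0.655% (exact 0.802%). All 1887 control cells formed cluster 1 and no cell of another day did, so cluster and control group coincide there. At D1 the share was 0.298% to 1.49% in 3 libraries, at D2 30.4% to 46.1% in 3, at D3 17.6% to 33.1% in 5, at D10 3.59% to 5.38% in 3, and at D21 it was 1.35% in 1 library. The D1, D10 and D21 libraries all lay below every D2 and D3 library. D2 and D3 together held 1337 of the 1515 cells (88.3%).

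**Figure D1:**
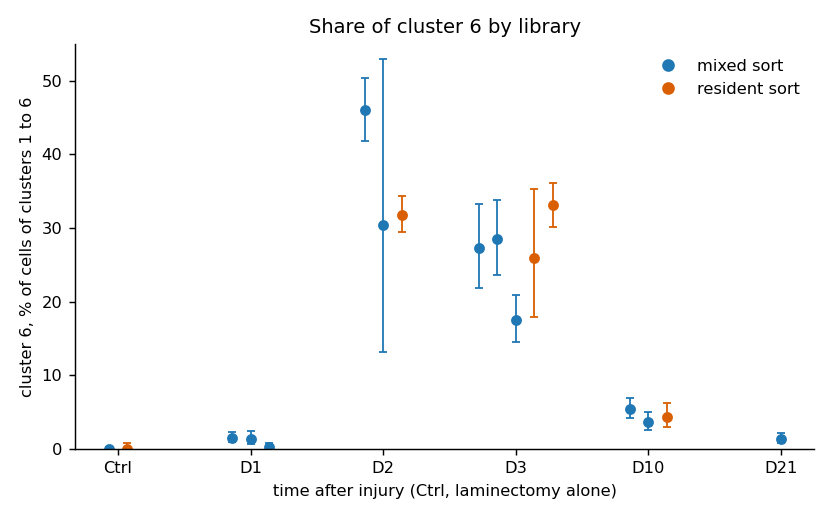
Percent of the cells of clusters 1 to 6 that are in cluster 6 (y axis) by time point (x axis), 1 point for each mixed or resident library with at least 20 such cells, with bars for the exact 95% binomial interval. D2 and D3 libraries sit between 17.6% and 46.1%, and all other libraries at or below 5.38%.

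Exact Clopper-Pearson 95% intervals cover counting error only; they ran from 41.8% to 50.3% for D2_mixed 1, from 29.4% to 34.3% for D2_resident 1, and from 13.2% to 52.9% for D2_mixed 2, which had 7 such cells. The clusters were cut on the genes that set the share, so no test is given. As a share of all cells of a library the values were lower where the mixed sort held many infiltrating cells, 0.93% in D2_mixed 2 for example, and 41.8% in D2_mixed 1.

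Mitotic genes defined the cells and are described without a test. Ube2c was at 750.1 and 661 CPM in the D2 libraries, at 690.4, 710, 680, 665 and 523 CPM at D3 and at 542, 638 and 1069.6 CPM at D10, while clusters 1 to 5 of the same 10 libraries had 30.0 ± 23.1 CPM. Every library of cluster 6 lay far above every library of the other microglia, and the level hardly moved with the day. Top2a was at 564 ± 209 against 31.7 ± 28.9 CPM, Birc5 (survivin, of the chromosomal passenger complex) at 588 ± 125 against 45.5 ± 35.9, and Cdk1 at 342 ± 80.0 against 53.9 ± 35.1 CPM. Plk1, the polo-like kinase of spindle assembly, was at 139 ± 51.8 against 2.62 ± 2.90 CPM, and Cdc20, which triggers anaphase, at 185 ± 84.1 against 5.74 ± 5.29 CPM.

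Levels were compared within each library as a log2 ratio of CPM, with 5 CPM added to both sums, and the median over the 10 libraries is given with the number of libraries of the same sign. Of the 2922 genes at 50 CPM or more in either sum, 351 (12%) were higher and 138 (4.72%) lower in cluster 6 in every library, and the median ratio of all these genes was 0.05. Of the mitosis and cytokinesis list, 61 of 63 genes at this level were higher in every library and none was lower, with a median ratio of 3.06. Chromatin and tubulin genes of the cell cycle followed with 30 of 37 and a median of 1.27, such as Hmgb2, a chromatin protein (2.97), and Stmn1, a microtubule regulator (1.83). Such genes mark the cluster, so the counts describe it and are not evidence for it.

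Genes of the start of the cycle were less uniform than mitotic genes. Of the DNA replication list, 8 of 22 genes were higher in every library and none lower (median 0.75). The nucleotide enzymes Tk1, Rrm2 and Tyms were high, with ratios of 2.55, 2.53 and 2.06, each higher in 10 of 10. Mcm5 of the replicative helicase, Pcna, the clamp that holds polymerases on DNA, and the cyclin Ccne1 had ratios of 1.05, 0.75 and 0.88, higher in 8, 8 and 7 of 10. The helicase subunits Mcm3 and Mcm6 had ratios of 0.18 and 0.00, with 6 and 5 of 10 libraries higher. Cdc6 and Cdt1, which load that helicase before S phase, had ratios of -0.58 and -0.31 at low levels of 3.27 and 14.8 CPM. Ung, a uracil-DNA glycosylase of early S phase, was lower in 10 of 10 (ratio -1.10) with 20 counts in all. Cyclin D1, Ccnd1, which carries growth signals into the cycle, was at 74.6 ± 26.3 against 112 ± 52.1 CPM and lower in 9 of 10, and the factor E2f1 at 22.1 ± 10.1 against 28.5 ± 17.6 CPM, lower in 7 of 10.

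DNA replication genes set cluster 5 apart from clusters 2 to 4. The summed DNA replication list was higher in cluster 6 than in cluster 2 (log2 ratio 1.25, 9 of 9 libraries), cluster 3 (2.15, 10 of 10) and cluster 4 (1.81, 5 of 5), but against cluster 5 the median ratio was -0.24 (-0.74 to 0.72) and cluster 6 was lower in 6 of 8. Summed over all cells of all libraries the order was the opposite, with 2746 CPM in cluster 5 and 3090.1 CPM in cluster 6. Against the same cluster 5 the mitosis list was 2.39 higher in 8 of 8. Ccnd1 (-1.31) and E2f1 (-1.01) were lower than in cluster 5 in 8 of 8 libraries. Mcm5 had a ratio of -0.31 (1 of 8 higher) and Pcna -0.38 (2 of 8 higher). Over all libraries with at least 20 cells of a cluster, Ccne2, the cyclin of S phase entry, was at 52.9 ± 41.4 CPM in cluster 5 (n = 12), 26.7 ± 22.8 in cluster 6 (n = 10) and 2.0 ± 4.0 in cluster 3 (n = 12). Cdc6 was at 18.7 ± 12.99, 3.3 ± 4.6 and 1.0 ± 2.8 CPM in the same clusters. Those means come from unlike sets of libraries. Within libraries, Ccne2 had a ratio of -1.62 against cluster 5 (-2.35 to 1.80, 2 of 8 higher) and Cdc6 of -1.72 (0 of 8 higher). Other S phase genes went the opposite way: cluster 6 was above cluster 5 for Rrm2 (0.87) and Dbf4 (1.56), which activates the kinase that fires replication origins, in 8 of 8 libraries, for the histone list (1.72) in 8 of 8 and for the list of DNA repair in S phase (0.89) in 7 of 8.

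**Figure D2:**
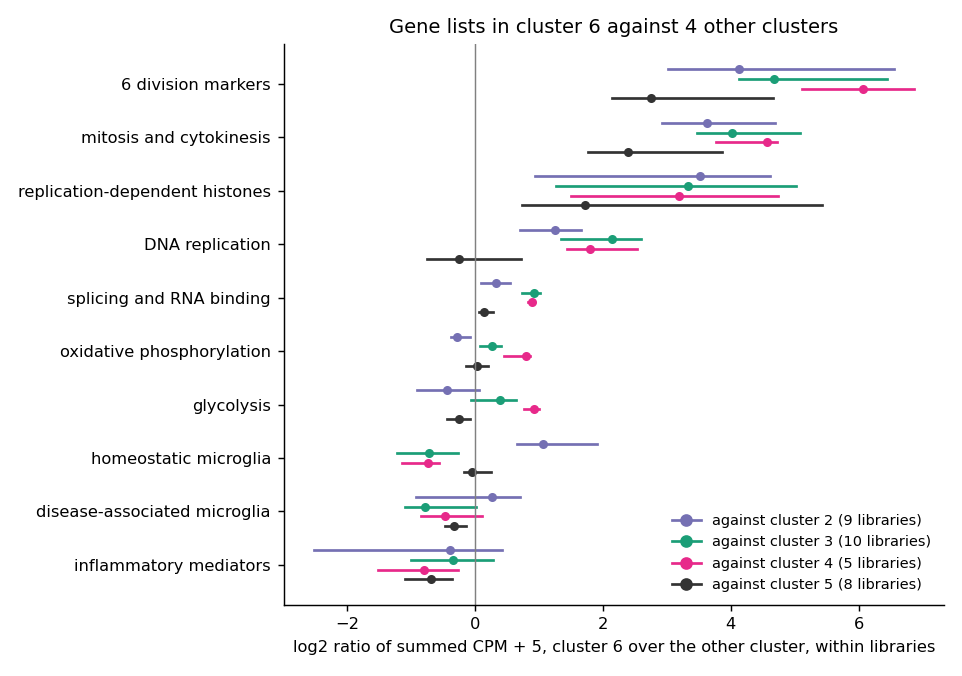
Log2 ratio of the summed CPM of each gene list, plus 5 CPM, between cluster 6 and 1 other cluster in the same library (x axis), for 10 lists (y axis) against clusters 2 to 5. Points are medians over 9, 10, 5 and 8 libraries and lines run from the lowest to the highest library; the DNA replication list lies near 0 against cluster 5 alone, with a median of -0.24.

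Cluster 6 cells differed from each other in their histone RNA. Cells were thinned at random to 2000 UMIs each, which left 960 of 1515. Of these, 91.3% had 10 or more UMIs of mitosis genes, against 4.78% of 2927 cells of cluster 5 and at most 0.35% of the cells of clusters 1 to 4. Replication-dependent histone genes, whose RNA is made in S phase, gave 5 or more UMIs in 41.4% of cluster 6 cells and in 3.48% of cluster 5 cells. Both limits were passed by 377 cells, the mitotic limit alone by 499, the histone limit alone by 20, and neither by 64. These limits were set after the data were seen, and the classes are ranges, not cell types, taken over cells of all libraries together. Histone RNA also differed between libraries (923 to 11771 CPM in cluster 6), so differences between cells and between libraries are not told apart here.

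Histone RNA varied between libraries far more than the mitotic genes did. The summed mitosis list lay between 9421 and 13203 CPM in all 10 libraries of cluster 6. The summed histone list was at 7099 and 1210.1 CPM in D2_mixed 1 and D2_resident 1, at 923, 1105, 3707, 2755 and 11771 CPM in D3_mixed 1 to 3 and D3_resident 1 and 2, and at 7585, 9185 and 1982 CPM in D10_mixed 1, D10_mixed 2 and D10_resident 1. High and low libraries occurred at each of these days, and the ranges of the days overlapped. Over thinned cells pooled by day, 19.4% had 10 or more histone UMIs at D2, 46.0% at D3 and 51.3% at D10. Both libraries of the sequencing pool shared by D2_resident 1 and D10_resident 1 were low, both of the pool of D3_mixed 1 and 2 were low, and both of the pool of D10_mixed 1 and 2 were high, while D2_mixed 1 and D3_mixed 3, which also share a pool, were at 7099 and 3707 CPM. The part of the pool was not tested. Hist1h1b, a linker histone, ranged from 0 CPM in D3_mixed 1 to 2372 CPM in D3_resident 2.

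**Figure D3:**
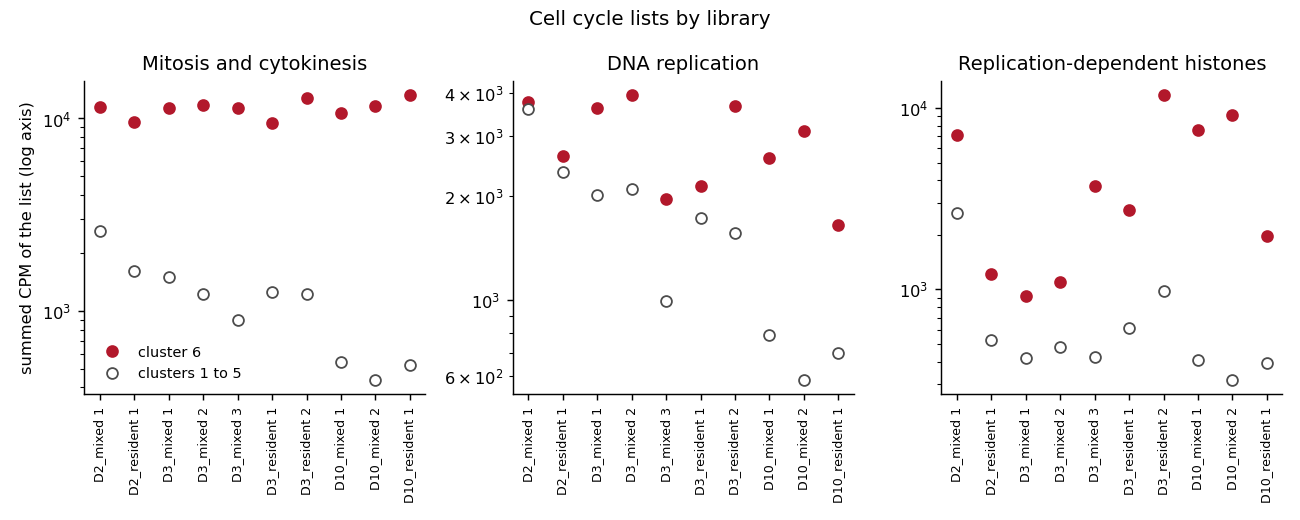
Summed CPM (log y axis) of 3 cell cycle lists in each of the 10 libraries (x axis), with filled points for cluster 6 and open points for clusters 1 to 5. The mitosis list of cluster 6 stays between 9421 and 13203 CPM, while its histone list ranges from 923 to 11771 CPM.

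Outside the cell cycle lists, 2768 genes were at 50 CPM or more, and 238 were higher and 137 lower in cluster 6 in every library. Of all 2768, in every library or not, 38 had a median ratio above 1 and 18 one below -1. The highest were Cep55 (ratio 2.75, 80.0 ± 36.1 CPM), Kpna2 (2.60, 165 ± 174), Ube2s (2.52, 657 ± 129), Fbxo5 (2.43, 76.9 ± 34.4) and Trim59 (2.40, 50.9 ± 41.5). Several of these are known for division although the lists lacked them: Cep55 acts at the final cut between daughter cells, Ube2s extends ubiquitin chains for the anaphase-promoting complex, Fbxo5 inhibits that complex, and Kpna2 is a nuclear import receptor. The next were Reep4 (2.01), Dbf4 (1.98), Rangap1 (1.96), Rdm1 (1.93), Nde1 (1.67), Ccdc34 (1.66) and the splicing protein Lsm2 (1.65). These 12 were chosen among genes that were higher in every library, so 10 of 10 is part of the choice.

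Among genes outside the lists that were lower in every library, the 12 lowest included receptors, lysosomal and lipid genes of microglia. Mertk, a receptor for engulfing dead cells, was at 26.4 ± 15.7 against 83.9 ± 48.8 CPM (ratio -1.33), and Srgap2, a regulator of cell shape, at 53.2 ± 21.0 against 126 ± 62.4 CPM (-1.29). Lgals3, galectin-3, had a ratio of -1.11, Wfdc17 -1.03, Fabp5, a fatty acid binding protein, -0.99. Vsir, an inhibitory checkpoint receptor, was at 147 ± 39.1 against 276 ± 83.0 CPM. With cluster 2 left out of the comparison cells the ratios of Lgals3 and Fabp5 were -0.47 and -0.40. Cd33, Atp13a2, Fam20c, Selenop, Tor3a and Apoe followed, with ratios of -0.97, -0.96, -0.95, -0.91, -0.87 and -0.86. Being lower in 10 of 10 libraries was part of the choice of these genes. They were not off. Apoe, the main lipid carrier of the brain, was still at 14018 ± 10857 CPM in cluster 6 against 27401 ± 23363 CPM. Against cluster 2, Apoe (0.59), Vsir (0.89) and Selenop (0.45) were higher in 8 of 9 libraries. Lgals3, Wfdc17 and Fabp5 were lower there in 9 of 9, and the remaining genes went both ways. Against cluster 5 Apoe, Vsir and Selenop had ratios of -0.06, -0.19 and -0.12. Against clusters 3 and 4 they were lower in 10 of 10 and 5 of 5 libraries.

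Genes of microglial state were lower as groups. Of the homeostatic list, 8 of 22 genes were lower in every library and none was higher (median -0.35), and of the disease-associated list, the lipid and lysosome genes of reactive microglia, 15 of 27 were lower and none higher (median -0.48). Csf1r, the receptor for the growth factor that keeps microglia alive, was at 915 ± 223 against 1196 ± 281 CPM (ratio -0.34, lower in 10 of 10). Igf1, a growth factor, had a ratio of -0.83, Lpl, lipoprotein lipase, -0.56, and both were lower in 10 of 10. P2ry12, the ADP receptor of surveying microglia, was lower in 9 of 10 (-0.70), whereas Tmem119 was lower in 6 and higher in 4 (-0.13). Of 11 inflammatory mediators 1 was lower in every library (median -0.67), where 4.72% of all genes at this level were lower and 12% higher. Tnf, with 5 libraries on either side, did not separate.

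Housekeeping groups differed in size. Splicing and RNA-binding genes were higher in every library for 22 of 36 (median 0.49), oxidative phosphorylation for 10 of 65 with 1 lower (median 0.21), and proteasome genes for 3 of 31 (median 0.21); over all genes at this level 12% were higher and 4.72% lower. None of 12 glycolysis genes and none of 77 ribosomal protein genes was higher in every library (medians 0.14 and -0.03). Genes of the cell cycle lists took 4.05% to 5.87% of cluster 6 UMIs against 0.883% to 2.91% in clusters 1 to 5, which lowers all other CPM values slightly; with those genes left out of the totals none of the ratios of the 58 genes named by rule moved by more than 0.07.

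How cluster 6 compared outside the cell cycle depended on the cluster it was set against. Against cluster 5 the homeostatic list was level (-0.04, 4 of 8 libraries higher), and P2ry12 and Csf1r had ratios of 0.37 and 0.13. The disease-associated list was lower than in cluster 5 in 8 of 8 (-0.32), with Lpl at -0.82, Igf1 at -0.81 and Spp1, osteopontin, at -0.65. Against clusters 3 and 4 the homeostatic list was lower in 10 of 10 and 5 of 5 libraries (-0.72 and -0.73), and Mertk was 2.52 lower on the log2 scale than in cluster 4, ratio -2.52. Against cluster 2 the direction turned: the homeostatic list was higher in 9 of 9 (1.06), P2ry12 by 1.83, Csf1r by 1.80 and Tmem119 by 1.41, while Fabp5 (-2.66) and Lgals3 (-2.48) were lower in 9 of 9. Glycolysis was likewise lower than in cluster 2 (-0.44, 8 of 9 lower) and higher than in cluster 4 (0.92, 5 of 5).

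The effect of time was tested among the cluster 6 cells alone, since the day did not define the cluster. Counts were summed per library and fitted with edgeR's quasi-likelihood test, with day and sex as terms and Benjamini-Hochberg adjustment over 3642 genes. From D2 to D3 1 gene passed an adjusted p of 0.05 (0.0275% of genes tested), from D3 to D10 13 (0.357%; 11 higher, 0.302%, and 2 lower, 0.0549%), and from D2 to D10 7 (0.192%; 6 higher, 0.165%, and 1 lower). At an unadjusted p under 0.05 there were 66, 303 and 258 genes. No gene of the cell cycle lists was among those called. Cluster 6 was selected for high levels of these genes on every day, so their steady level was partly set by the selection. The mitosis list had a median log2 change of 0.20 from D2 to D3, against -0.01 over all genes, and -0.01 from D3 to D10 (all genes -0.01). The comparisons share libraries, so their calls are not independent of each other.

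Apoe rose from D2 to D3 and from D2 to D10. It was at 521 and 1884 CPM at D2, at 11897, 13142, 10763, 11634 and 7189 CPM at D3, and at 25054, 35741 and 22357 CPM at D10. The 3 days did not overlap. The log2 change from D2 to D3 was 3.24 ± 0.49 (SE, adjusted p = 0.0417, edgeR) and from D2 to D10 4.65 ± 0.55 (adjusted p = 0.00117). The first call was lost without any of 6 of the 10 libraries (D2_mixed 1, D3_mixed 3, D3_resident 1, D10_mixed 1, D10_mixed 2 or D10_resident 1), with log2 changes of 2.60 to 4.40 over the 10 left-out fits. The second held in each of them, with log2 changes of 3.99 to 5.79. Within the 2 pools that held both days, Apoe was 4.36 higher in D3_mixed 3 than in D2_mixed 1 and 3.57 higher in D10_resident 1 than in D2_resident 1 on the log2 scale.

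Apoc1 and Apoc4, lipoprotein genes next to Apoe, rose between D3 and D10. Apoc1 rose by a log2 of 2.72 ± 0.47 (adjusted p = 0.0171; -1.08 with pool in place of sex) and Apoc4 by 3.12 ± 0.47 (adjusted p = 0.00709), and from D2 to D10 they rose by 4.21 ± 0.66 and 5.01 ± 0.62. Apoc4 was at 3.09 and 6.51 CPM at D2, at 8.75 to 38.7 CPM at D3 and at 138, 198 and 157 CPM at D10. Both calls of D10 against D3 were lost without D10_mixed 1 or D10_mixed 2, and that of Apoc1 also without D3_resident 1, D3_resident 2 or D10_resident 1. The calls of both genes against D2 were lost without D2_mixed 1, D2_resident 1 or D10_resident 1.

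Cst7, cystatin F, an inhibitor of lysosomal proteases typical of reactive microglia, rose at D10. It was at 96.7 and 175 CPM at D2, at 273, 195, 210.4, 114 and 230 CPM at D3 and at 1093, 1138 and 1059 CPM at D10, so that D10 stood apart while D2 and D3 overlapped. The log2 change from D3 to D10 was 2.58 ± 0.24 (adjusted p = 0.000127) and from D2 3.08 ± 0.32 (adjusted p = 0.000611), and both calls held without each library in turn. Ccl6, a chemokine, rose from D3 to D10 by 2.61 ± 0.33 (adjusted p = 0.00196), from 78.7 to 214 CPM to 897, 1035.0 and 283 CPM. It was at 395 and 338 CPM at D2, within the range of D10. Also higher at D10 than at D3 were the membrane proteins Tmem176b (2.23 ± 0.34) and Tmem176a (2.04 ± 0.34), the phosphate and ATP transport protein Ank (1.94 ± 0.35) and Gm1673 (1.82 ± 0.32). The calls of Tmem176b, Tmem176a, Ank and Gm1673 were lost without D10_mixed 1 or D10_mixed 2, those of Ank and Gm1673 also without D3_resident 1 or D3_resident 2, and that of Gm1673 without D10_resident 1. Igf1 rose from D2 to D10 by 3.34 ± 0.51 (adjusted p = 0.00846), from 15.4 and 27.4 CPM to 184, 138 and 325 CPM, a call lost without D2_mixed 1, D2_resident 1 or D10_resident 1.

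Lgals1, galectin-1, and Spp1 fell from D3 to D10. Lgals1 was at 1292, 1168, 1086, 909.7 and 842 CPM at D3 and at 254, 138 and 168 CPM at D10 (log2 change -2.42 ± 0.28, adjusted p = 0.00113), and at D2 it lay between, at 556 and 482 CPM. Spp1 was at 29021, 22128, 34590, 23023 and 13385 CPM at D3 and at 3859, 5166 and 5264 CPM at D10 (log2 change -2.36 ± 0.36, adjusted p = 0.00709), a call lost without any 1 of the 3 D10 libraries. C5ar1, the receptor for complement fragment C5a, fell from D2 to D10 by 2.00 ± 0.33 on the log2 scale (adjusted p = 0.0139), from 341 and 388 CPM to 83.4, 77.6 and 94.4 CPM. That call was lost without D2_mixed 1, D2_resident 1 or any of the 3 D10 libraries.

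Of the disease-associated list, 5 of 27 genes tested rose and 1 fell from D3 to D10, where 0.302% of all genes rose and 0.0549% fell (median log2 change 0.54 against -0.01 over all genes), and 5 rose and none fell from D2 to D10 (median 1.22 against -0.03). No gene of the homeostatic list passed in either comparison, although its median change was 0.39 and 0.68. No sequencing pool held both D3 and D10 libraries, so within pools that pair is linked through the D2 libraries alone. With pool in place of sex as a term, which left 2 residual degrees of freedom, 3 of the 13 calls were among the 73 made. Without D10_mixed 1 or D10_mixed 2 the count of calls between D3 and D10 fell from 13 to 3, and without D10_resident 1 or D3_resident 1 to 7. Between D2 and D10 it was 2 without D2_mixed 1, D2_resident 1 or D10_resident 1, and 14 and 13 without D3_mixed 1 and D3_mixed 2.

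The other microglia were fitted in the same way. Over 8805 genes none passed from D2 to D3 (285 at an unadjusted p under 0.05, edgeR), 70 rose (0.795%) and 111 fell (1.26%) from D3 to D10, and 53 rose (0.602%) and 156 fell (1.77%) from D2 to D10. In clusters 1 to 5 of the same libraries Cst7 rose by 2.52 from D3 to D10, Apoc4 by 3.14, Apoc1 by 2.81 and Lgals1 fell by 2.63 on the log2 scale. The test of the difference between the changes in cluster 6 and in clusters 1 to 5, with the library as a block, gave 0.00 for Cst7 (adjusted p = 0.997, edgeR), -0.22 for Apoc4 (0.884) and 0.15 for Lgals1 (0.871). For Apoe between D2 and D10 it gave -0.15 (0.858) and for Igf1 0.30 (0.805). For Spp1 it gave -0.55 from D3 to D10 (adjusted p = 0.0498): its fall was larger in cluster 6. A p that misses the threshold does not show equal changes.

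**Figure D4:**
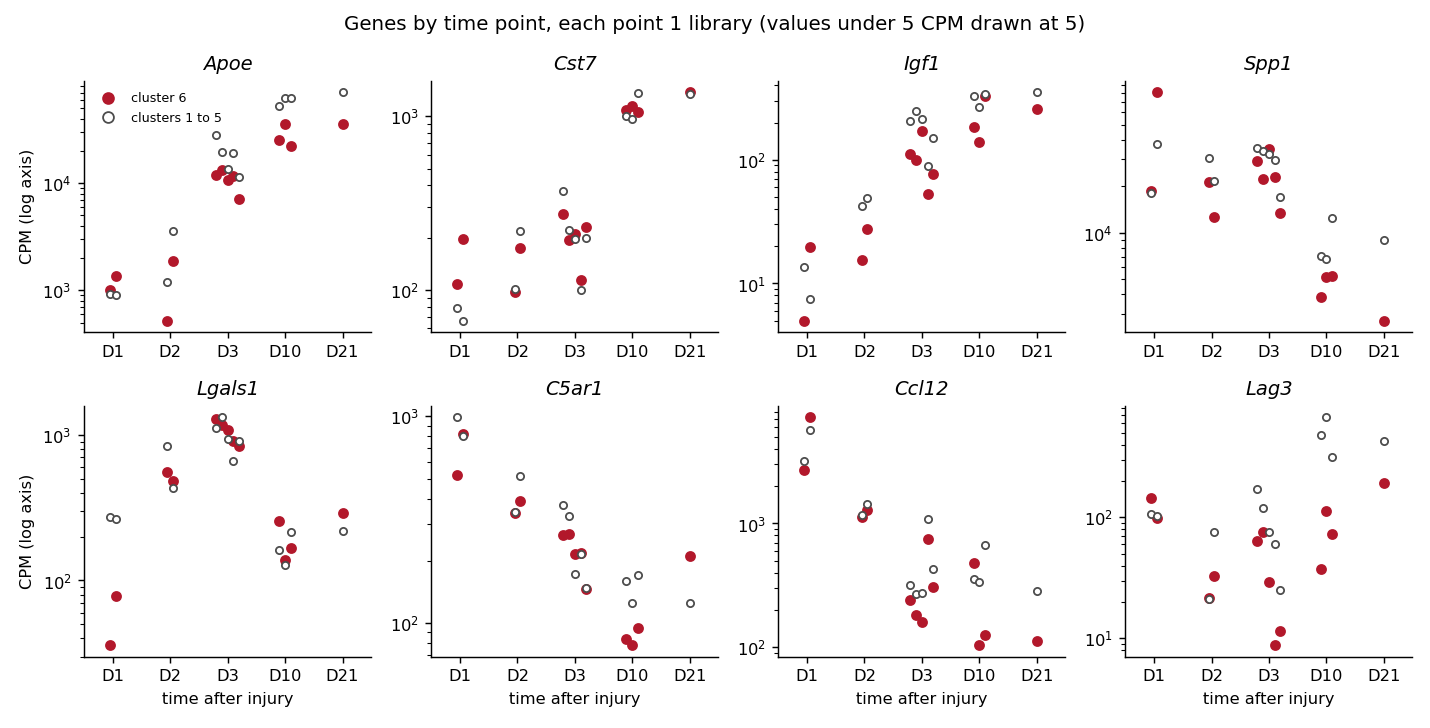
CPM (log y axis, values under 5 CPM drawn at 5) of 8 genes by day (x axis), with 1 filled point per library for cluster 6 and 1 open point for clusters 1 to 5, in libraries with at least 10 cluster 6 cells. Apoe and Cst7 are at 22357 CPM or more and 1059 CPM or more in the D10 libraries of cluster 6, and Lag3 at D10 is at 37.6 to 112 CPM there against 318 to 675 CPM in clusters 1 to 5.

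Time changes that differed between dividing and other microglia were sought over 7292 genes with the same test. From D2 to D3, 31 genes differed (0.425%), 30 with a positive sign (0.411%) and 1 with a negative one (0.0137%). From D3 to D10 there were 137 (1.88%), 114 positive (1.56%) and 23 negative (0.315%), and from D2 to D10 225 (3.09%), 203 positive (2.78%) and 22 negative (0.302%). Of these, 27, 62 and 154 were cell cycle genes, all with a positive sign. Cluster 6 was selected for high levels of these genes on every day. Ube2c fell by 2.90 on the log2 scale in clusters 1 to 5 from D2 to D10 and had a change of 0.21 in cluster 6. Both values are given as a description, since such genes divide the cells between the clusters. Without D3_resident 2 or D2_mixed 1 the count from D2 to D3 was 11 or 19, and 55 without D3_resident 1.

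Outside the cell cycle, Lag3, an inhibitory receptor of the immunoglobulin family, differed in its change over time. In cluster 6 it was at 21.6 and 32.5 CPM at D2 and at 37.6, 112 and 73.4 CPM at D10. In clusters 1 to 5 it was at 21.0 and 75.6 CPM at D2 and at 479, 675 and 318 CPM at D10, so that cluster 6 lay below every D10 value of the other microglia. The difference between the changes was -2.09 ± 0.38 (adjusted p = 6.37e-05, edgeR) from D2 to D10 and -1.66 ± 0.40 (adjusted p = 0.0108) from D3 to D10. The first held without each library in turn (-2.98 to -1.66). Over all libraries cluster 4 held 891 cells at D10 and 222 at D2, so the makeup of the comparison cells changed with the day. Lag3 itself may also have helped to place cells in other clusters, which the p-values do not take into account. The part of either in the result was not tested.

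Cd14, the lipopolysaccharide co-receptor, changed from 246 to 149 CPM in cluster 6 and from 329 to 445 CPM in clusters 1 to 5 between D2 and D10 (difference -1.25 ± 0.27, adjusted p = 0.00123). Ccl3, a chemokine, stood at 167 and 179 CPM in cluster 6 and at 296 and 628 CPM in clusters 1 to 5 (difference -1.004 ± 0.29, adjusted p = 0.0309). Cd300a, an inhibitory receptor, was at 26.7 and 23.2 CPM in cluster 6 against 26.03 and 85.5 CPM (difference -1.96 ± 0.50, adjusted p = 0.0116), a call lost without D2_mixed 1, D10_mixed 1 or D10_mixed 2. Nadk, an NAD kinase, gave -2.22 (adjusted p = 0.0462), lost without D2_resident 1, D3_mixed 3 or any D10 library. Mknk2, a kinase of translation control, had 0 counts in the 3 D10 libraries of cluster 6 and 88 at D2, which makes it at least 4.23-fold lower at D10 (floor of 3 counts over the group); its call was lost without D2_resident 1, D10_mixed 1 or D10_mixed 2. From D2 to D10 the count of 225 calls became 130 without D2_mixed 1 and 149 without D10_mixed 2.

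From D3 to D10, 75 of the 137 genes lay outside the cell cycle lists. Gpx1, an antioxidant enzyme, was at 1480 and 1571 CPM in cluster 6 and at 1189 and 624 CPM in clusters 1 to 5 (difference 0.97 ± 0.17, adjusted p = 9.06e-05). Hmox1, heme oxygenase, was at 348 and 131 CPM in cluster 6 and at 801 and 125 CPM in the others (difference 1.29 ± 0.34, adjusted p = 0.0277). Of 65 oxidative phosphorylation genes 5 had a positive difference and none a negative one, against 1.56% and 0.315% of all genes. The summed list was at 24878 and 24616 CPM in cluster 6 at D3 and D10. In clusters 1 to 5 it was at 22837 and 17027 CPM. Over all libraries cluster 4 held 139 cells at D3 and 891 at D10, so the comparison cells changed. The part of that change in these differences was not tested. Negative differences were found for Ccl3 (-1.38), Cd14 (-0.95) and the RNA-processing genes Thoc2 (-2.31) and Srek1 (-1.91). The calls of Thoc2 and Srek1 were lost without D10_mixed 1 or D10_mixed 2, and also without D3_resident 2 for Thoc2 and without D3_mixed 2 or D3_mixed 3 for Srek1. Cxcl10, an interferon-induced chemokine, gave 3.62 (adjusted p = 0.00047) but rested on D10_mixed 1, without which it was 0.96 and not called. Ccl5 gave -2.80 from D2 to D3 (adjusted p = 0.00253), with 500 of its 514 D2 counts in D2_resident 1, and was not called without that library or without D3_resident 2. The count of 137 became 85 without D10_mixed 1, 77 without D10_mixed 2 and 91 without D3_resident 2.

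The few dividing cells of D1 and D21 were compared in a fit of libraries with at least 10 cluster 6 cells, a limit set after the data were seen. It added D1_mixed 1 and 2 with 18 and 11 cells and D21_mixed 1 with 15 cells, and tested 3333 genes. The added libraries share a sequencing pool that holds no D2, D3 or D10 library. Changes from D1 or to D21 therefore cannot be told apart from pool. The lone D21 library is assumed to vary like the others. From D1 to D2 1 gene passed (0.03%), from D1 to D3 13 rose (0.39%) and 17 fell (0.51%), 0.9% in all, from D1 to D10 25 rose (0.75%) and 15 fell (0.45%), 1.2% in all, and from D3 to D21 2 rose (0.06%). Without D1_mixed 2 the count of 30 between D1 and D3 became 1 and that of 40 between D1 and D10 became 2, and without D1_mixed 1 they became 10 and 9. Other libraries also moved these counts by over 1.5 times: the count between D1 and D3 was 15 without D10_mixed 2 and 17 to 19 without D3_mixed 1, D3_mixed 2 or D10_mixed 1, and that between D1 and D10 was 10, 16 and 15 without D10_mixed 1, D10_mixed 2 and D10_resident 1, and 64 without D3_mixed 3.

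Ccl12, Ccl2 and Ccl6, which encode chemokines, fell from D1 to D3. Ccl12 was at 2688 and 7244 CPM at D1, at 1126 and 1277 CPM at D2, at 160 to 752 CPM at D3 and at 104 to 476 CPM at D10. The log2 change from D1 to D3 was -4.09 ± 0.59 (adjusted p = 0.00274, edgeR), and the call was lost without D1_mixed 2 with a change of -3.08. Ccl2 fell by 2.61 ± 0.48 (adjusted p = 0.0146) and Ccl6 by 2.80 ± 0.41 (adjusted p = 0.00274) on the log2 scale, and both calls were lost without D1_mixed 2, that of Ccl2 without D1_mixed 1 as well. The summed inflammatory list was at 6755 to 10640.0 CPM in cluster 6 at D1 and at 9428 to 10572 CPM in clusters 1 to 5 of the same libraries. Other genes that fell from D1 to D3 were Srm, which makes spermidine (-2.41), Ybx3, an RNA-binding protein (-3.34) and Id1 (-2.92). Plaur, the urokinase receptor, fell by 2.88 and the lysosomal hydrolase Naaa by 2.68. The calls of Ybx3, Id1, Plaur and Naaa were lost without D1_mixed 1 or D1_mixed 2, that of Srm without D1_mixed 2, that of Plaur also without D3_resident 2, and that of Naaa also without any 1 of the D3 libraries, D10_mixed 1 or D10_mixed 2.

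Lgals1 rose from 35.8 and 78.5 CPM at D1 to 842 to 1292 CPM at D3 (log2 change 4.31 ± 0.45, adjusted p = 0.000198), in every fit that left out a library, and from D1 to D2 by 3.23 ± 0.50 (adjusted p = 0.0276), a call lost without D1_mixed 1, D1_mixed 2, D2_mixed 1, D2_resident 1, D3_resident 1 or D10_resident 1. Apoe rose from D1 to D3 by 3.40 ± 0.50 and from D1 to D10 by 4.79 ± 0.55, and Cst7 from D1 to D10 by 3.15 ± 0.40 (adjusted p = 0.000993); both D10 calls held without each library in turn, and the D3 call of Apoe was lost without D1_mixed 1 or D1_mixed 2. Lsp1, an actin-binding protein of leukocytes, had 0 counts at D1 and was at least 4.75-fold higher at D3 (floor of 3 counts over the D1 cells), a call lost without either D1 library. At D21 Cst7 was at 1371 CPM and Ccl6 at 1129 CPM, a log2 of 3.30 ± 0.40 (adjusted p = 0.00132) and 3.87 ± 0.59 (adjusted p = 0.0118) above D3. The call of Ccl6 was lost without D3_resident 1 or D10_resident 1.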

How the data were processed

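The values analysed are UMI counts, deposited by the authors without normalization, 1 matrix per library, beside a table that gives each cell its cluster, cell type code and sequencing pool. Cell Ranger 3.1.0 and the build GRCm38 (mm10) are named in the submitters' processing notes; cell filters and the clustering method are not given in the sources used here. The percent of mitochondrial counts was deposited too, and its values and the cell sums equalled those from the counts for all 30958 cells (percent within 0.001). No further filter, doublet caller or correction for free RNA was used. Counts of cluster 6 and of clusters 1 to 5 were summed per library. CPM is per 1000000 UMIs of the sum. Sums of at least 20 cells entered edgeR 4.0.16 in R 4.3.3 (TMM, filterByExpr, quasi-likelihood test, 2-sided, Benjamini-Hochberg adjustment over all genes tested). Time contrasts had day and sex as terms, and differences between changes had the library as a block and a cluster 6 term per day. The fits were also run on simulated data with known changes, with no outcome given here. DESeq2 1.42.0 and other filters, depths and terms were alternatives, and for ratios other pseudocounts, totals and comparison cells. The members, gene lists and tests were chosen with earlier results of these data known.

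Named genes by time were the 8 with the largest rise and fall among those called, at 20 CPM or more in 1 group and with no overlap between libraries; for the differences between changes 5 per direction were taken. Between clusters they were the 12 highest and 12 lowest with the same sign in every library at 50 CPM or more outside the cell cycle lists, plus a fixed list. Cd14, Ccl3, Gpx1, Hmox1, Lag3 between D3 and D10, Plk1, Cdc20, Hmgb2, Stmn1, Tk1, Tyms, Mcm3, Mcm6, Cdc6, Cdt1, Ccne2 and Ung were named after their values were seen. Values without each library in turn were computed for the genes named by rule.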

Additional observations from a re-analysis of the deposited data

Results flagged for a closer look

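In 17 of 106 groups of 5 D3 libraries of cluster 6, 1 library stood apart from the other 4; chance flags about 1 in 20 groups. D3_resident 2 was highest for the histone genes Hist1h3c (662.7 CPM), Hist1h1d (246.9), Hist1h2ab (808.5) and Hist1h1a (236.8), for Cep55 (138.6) and for Ccnd2 (1.44, a single count), and lowest for Ube2c (522.6). D3_mixed 1 was highest for Plaur (56.2, 7 counts), Ccnb2 (401.4) and Foxm1 (40.1, 5 counts). D3_mixed 2 was highest for Ccna2 (357.9) and Myc (37.7, 6 counts) and lowest for Cxcl10 (0). D3_mixed 3 was highest for Apoc1 (171.7) and Fabp5 (723.0). D3_resident 1 was highest for Ccl12 (752.3) and lowest for Cd33 (26.2, 3 counts).

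The change over time differed between cluster 6 and clusters 1 to 5 for the genes named by rule, as log2 differences. From D2 to D3 these were Hist1h3c (3.28), Hist1h1d (3.16), Hist1h2ab (2.98), Hist1h1a (2.98), Hist1h1b (2.82) and Ccl5 (-2.80). Without D3_resident 2 the first 4 were not called, with 2.11, 2.86, 2.37 and 1.52, and Hist1h1b was called with 2.47. From D3 to D10 they were Cdca3 (4.40), Efcab11 (4.21), Ccne2 (3.84), Cxcl10 (3.62), Birc5 (3.60), Mknk2 (-7.54), BC005561 (-3.54), Phip (-2.36), Thoc2 (-2.31) and Srek1 (-1.91). From D2 to D10 they were Hist1h2af (5.996), Ccne2 (5.81), Hist1h1b (5.39), Hist1h3c (5.13), Cenpi (5.09), Mknk2 (-7.75), Ccl5 (-2.26), Nadk (-2.22), Lag3 (-2.09) and Cd300a (-1.96). The values of Mknk2 depend on the prior count, since it had 0 counts at D10.

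Cluster 6 cells also occurred outside the libraries compared: 9 of 9253 cells of the 7 infiltrating libraries, and 2 of 3800 cells of a D3 library with a title for infiltrating cells and a sort label for resident ones.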

How the results depend on the processing

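Counts of called genes depended on the fit. For D3 against D2 (1 gene) they were 5 with DESeq2, 13 with no expression filter, 349 with the sequencing pool in place of sex and 5 without D3_mixed 1 and 2, the shallowest pool. For D10 against D3 (13) they were 32, 48 and 73 (3 of the 13 among the 73) under the first 3 settings and 0 with at least 50 cells (157 at an unadjusted p under 0.05, edgeR). For D10 against D2 (7) they were 41, 37 and 108, then 16 with at least 10 cells, 0 with at least 50 (99 unadjusted), 4 at equal depth, 18 with no sex term and 31 without the shallowest pool. With no filter D2 against D1 gave 26, D3 against D1 95, D10 against D1 113 and D21 against D3 8; DESeq2 gave 51, 78 and 11 for the last 3, and D10 against D1 gave 65 with no sex term. With at least 50 cells the differences between changes gave 61, 53 and 124. The pool settings and the fits from 10 cells were chosen after seeing the data; pool together with sex could not be fitted. The cause of these shifts was not tested.

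Leaving out 1 library at a time, counts ranged from 0 to 1 (D3 against D2), 3 to 13 (D10 against D3), 2 to 14 (D10 against D2), 0 to 1 (D2 against D1), 1 to 31 (D3 against D1), 2 to 64 (D10 against D1) and 1 to 3 (D21 against D3), and for the differences between changes from 11 to 55, 77 to 191 and 130 to 254.

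Direction reversed for Apoc1 from D3 to D10 with pool in place of sex (-1.08), and for the difference of Ccl5 with mixed libraries alone (1.11 for D3 against D2, 0.20 for D10 against D2) and, for D10 against D2, without D2_resident replicate 1 (0.044; range over the libraries left out -2.95 to 0.044). Of the 58 ratios of cluster 6 to clusters 1 to 5, 56 to 58 kept their sign under each alternative. Cdkn1a, Mybl2 and Tmem119 changed sign under at least 1, and Il1b was at 0 with thinned cells. With 1 or 20 CPM added in place of 5, log2 ratios moved by up to 1.40 or 1.23, so their sizes depend on the amount added.

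Same-numbered libraries of D3_mixed and D10_mixed did not deviate together (correlations -0.014 and 0.025), so the numbers pair nothing. In the 5 libraries of D3_mixed and D10_mixed, the fit with the replicate block, which left 1 residual degree of freedom, called 557 genes between D10 and D3, against 5 without the block.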
